A study of Mus musculus with 15 samples.

Results

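The genes described here encode the machinery of regulated exocytosis: the SNARE proteins that fuse a vesicle with the plasma membrane, the Rab GTPases that bring it there, the factors that dock, prime and trigger it, the proteins of the vesicle and granule membrane, and the calcium channels that open beforehand. The list holds 41 genes chosen by name. Of these, 40 had a probe set that names them alone, out of 19938 genes with such a probe set, and all 40 passed the filter on dim signal. Vamp2, the vesicle SNARE, was not analysed because its only probe set also names another gene, Ubr3.

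In regulated exocytosis, vesicles filled with hormone, transmitter or enzyme wait near the plasma membrane until a signal, most often a rise in calcium, lets them fuse. Neurons release small synaptic vesicles and dense-core vesicles in this way. The endocrine cells of the pancreatic islet release hormone granules with much of the same protein set, whereas acinar cells release zymogen granules with related but partly different Rab and SNARE proteins. Duct cells carry bicarbonate and mucus and are not known for hormone granules.

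Expression was measured on 15 Affymetrix gene arrays of sorted mouse pancreas cells in 5 groups of 3 arrays each. Males carrying a Sox9-EGFP or an Ngn3-EGFP reporter were crossed to CD1 females, and each sort pooled several animals. Ngn3-GFP+ cells were taken at embryonic day e15.5 from the Ngn3-EGFP cross. Sox9-EGFP mice gave Sox9-GFP+ cells of e10.5 and e15.5 embryos and of pups at postnatal day p23, and GFP- cells of the same Sox9-EGFP pancreata at p23. Sox9 marks the progenitor epithelium and later the ducts, and Ngn3 (Neurog3) marks cells that enter the endocrine lineage. In each positive sort only cells of high GFP signal were kept. The reporter protein outlasts its transcript, so a positive cell may no longer express the marked gene. The GFP- sort holds whatever else was in the dissociated p23 pancreas. With pooled animals and 3 arrays a group, every p-value below measures the spread between arrays, which may be technical in part.

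Levels are given as log2(intensity + 16), so a difference of 1 is a doubling, somewhat understated for dim genes. Where every array of 1 group lay below the filter threshold of 6.83, the difference is the fitted one and the fold is a lower bound, taken against that threshold. Where only some arrays of a group did, as for Snap25, Syp and Rab3b in Sox9-GFP+ cells at p23, the fitted fold is given. Such a fold rests partly on dim signal and cannot be ranked against a lower bound. Errors on differences are standard errors (SE) from limma, a linear model that draws each gene's variance toward a common value, fitted to 16883 genes. A gene was called higher or lower at a Benjamini-Hochberg adjusted p of 0.05. Array medians lay between 165.5 and 211.7 in linear intensity. Within a group, arrays correlated least among Ngn3-GFP+ cells (0.933 to 0.952) and most among e15.5 Sox9-GFP+ cells (0.988 to 0.995). In Ngn3-GFP+ cells the Sox9 transcript stood at 11.21, 10.13 and 11.14, against 12.14, 12.10 and 12.11 in Sox9-GFP+ cells of the same age. The Neurog3 transcript stood at 11.53, 11.75 and 12.21 in Ngn3-GFP+ cells, against 12.12, 11.82 and 11.66 in Sox9-GFP+ cells, so the ranges overlapped and this transcript does not separate the e15.5 sorts.

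Marker genes of other cell types differed between the sorts, and their sums are given here in linear intensity because they bear on what follows. The 14 endocrine markers measured of 16 listed (hormones, granins, islet transcription factors) summed to 82717 to 95168 in Ngn3-GFP+ cells. Their sum in Sox9-GFP+ cells was 29297 to 35611 at e10.5, 40228 to 60137 at e15.5 and 4558 to 9270 at p23, and GFP- cells had 5429 to 9650. The 13 neuron markers measured of 15 summed to 7495 to 10871 in Ngn3-GFP+ cells, and for Sox9-GFP+ cells to 12388 to 14123 at e10.5, 5546 to 6747 at e15.5 and 983 to 1136 at p23, with 1256 to 2058 in GFP- cells. The neurofilament genes Nefl and Nefm and the tubulin gene Tubb3 carried 73.9% to 88.2% of that sum in the embryonic arrays, and at most 13.2% in Sox9-GFP+ cells and 43.1% in GFP- cells at p23. The 11 leukocyte markers measured of 12 summed to 1747 to 3762 in Sox9-GFP+ cells at p23, against 42404 to 58557 in GFP- cells, and to at most 1705 in any embryonic array. The 9 acinar markers measured of 12 summed to 72894 to 84180 in Sox9-GFP+ cells at p23, against 92473 to 98008 in GFP- cells. The 7 ductal markers measured of 9 summed to 14684 to 17486 in Sox9-GFP+ cells at p23, against 5543 to 6791 in GFP- cells. No marker of these lists was below the filter in all 15 arrays. The part of each cell type in the results below was not tested, and in such pooled sorts fewer cells of a type and less RNA per cell cannot be told apart.

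**Figure D1:**
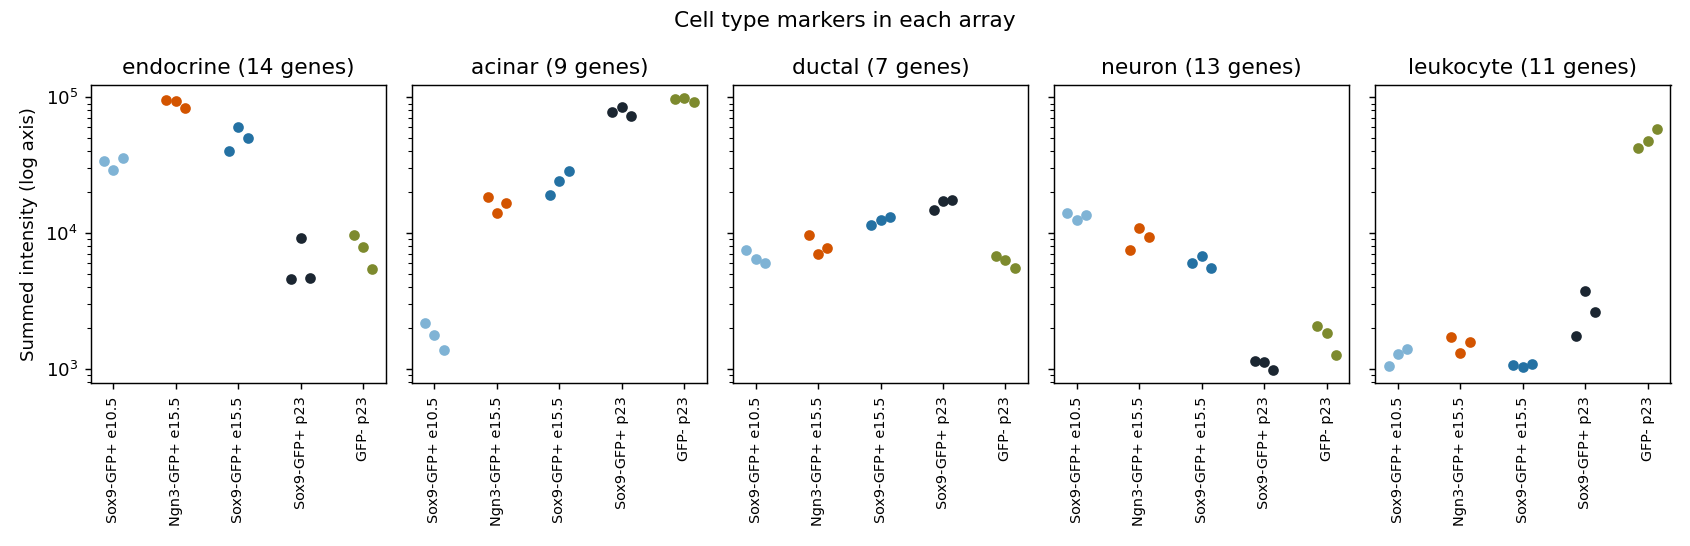
Summed linear intensity of 5 marker lists in each array, on a log axis; each point is 1 array, 3 per group, and the number of genes measured stands above each panel. Endocrine sums were highest in Ngn3-GFP+ cells and lowest at p23, neuron sums were lowest at p23, and leukocyte sums were highest in GFP- cells, at 42404 or more.

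Most exocytosis genes were highest in an embryonic sort. The mean was highest in Ngn3-GFP+ cells for 24 of the 40 genes, whereas 19.5% of all genes tested had their highest mean there. Sox9-GFP+ cells had the highest mean at e10.5 for 5, at e15.5 for 3 and at p23 for 6, and GFP- cells for 2, Rab3d and Syn2. The lowest mean fell in Sox9-GFP+ cells at p23 for 15 genes and in GFP- cells for another 15, so in 1 of the p23 groups for 30, as it did for 45% of all genes. In all, 7 probe sets were dim throughout: Sytl2, Syt1, Syt4, Syt16, Syn2, Cplx1 and Sv2c had all 5 group means below the median of the table, a log2 of 7.67, so small differences in them are the least certain. Of the 40 genes, 36 were called in at least 1 comparison, and Syt1, Syt11, Syt16 and Syn2 in none.

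**Figure D2:**
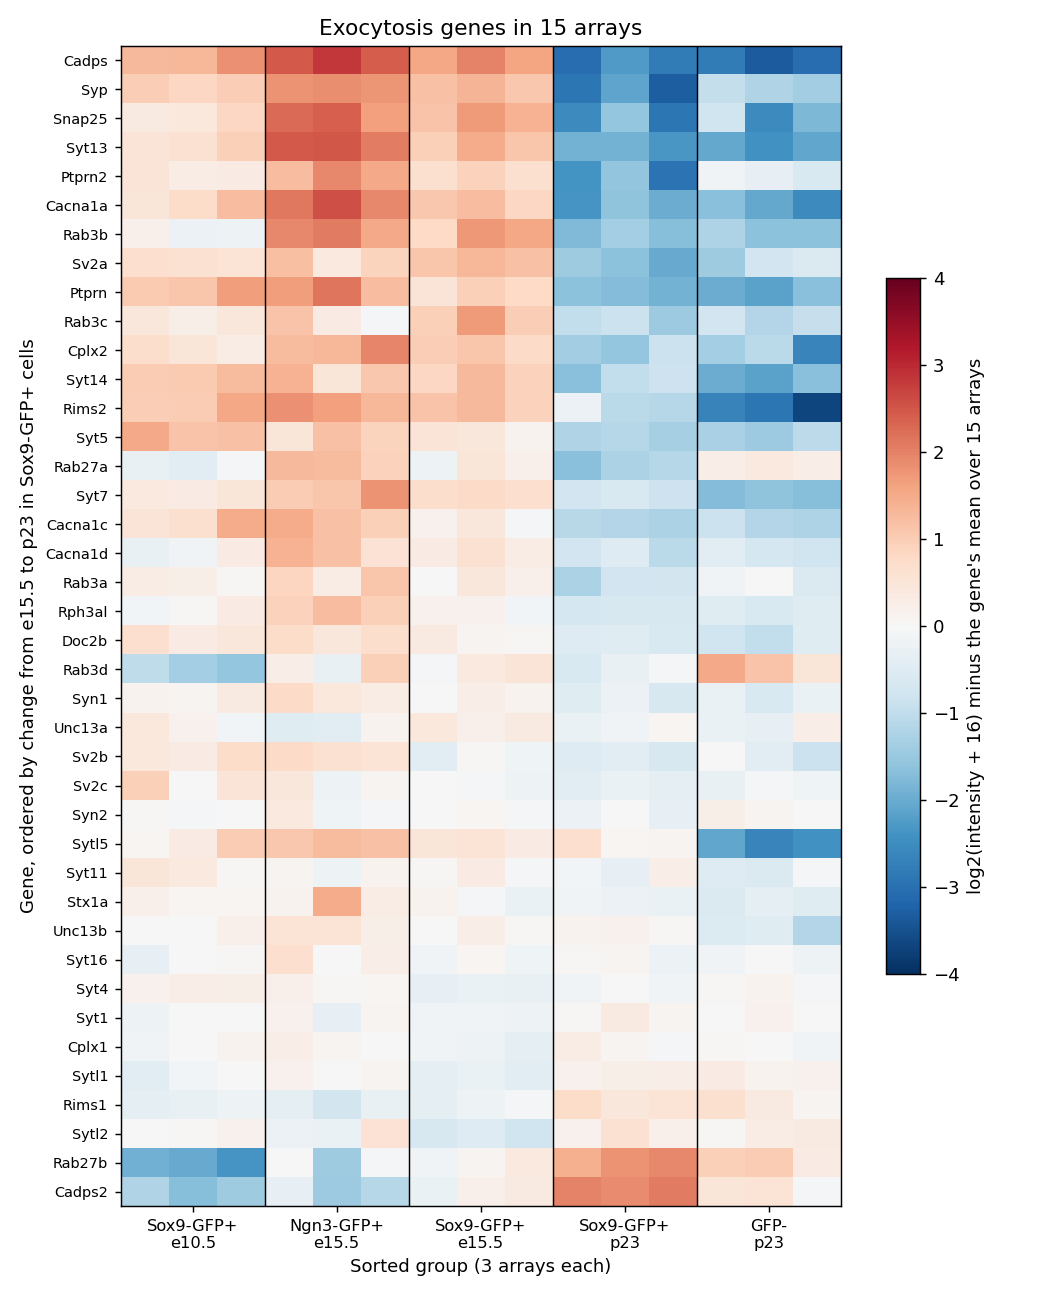
Each row is 1 exocytosis gene and each column 1 array, 3 per group; colour gives log2(intensity + 16) minus the gene's mean over the 15 arrays. Genes are ordered by their change to p23 in Sox9-GFP+ cells: the rows at the top are high in all embryonic sorts and low in Sox9-GFP+ cells at p23, where GFP- cells stand higher for Ptprn2 and Syp, and Rab27b and Cadps2 at the bottom run the other way.

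The promoters of 4 genes are shown because these genes marked the extremes of that order: Cadps, Syp and Ptprn2 were among the 6 with the largest fitted falls to p23 and Cadps2 had the largest rise. Each window runs from 250 bases before to 50 bases after the annotated start, from RefSeq on GRCm38.p6, and 30 of the 41 genes had at least 1 window in that table (41 windows in all). The windows of Snap25, Syt13 and Cacna1a, the other 3 of the largest falls, were not in the table. Capitals mark the motifs found.

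Syp promoter: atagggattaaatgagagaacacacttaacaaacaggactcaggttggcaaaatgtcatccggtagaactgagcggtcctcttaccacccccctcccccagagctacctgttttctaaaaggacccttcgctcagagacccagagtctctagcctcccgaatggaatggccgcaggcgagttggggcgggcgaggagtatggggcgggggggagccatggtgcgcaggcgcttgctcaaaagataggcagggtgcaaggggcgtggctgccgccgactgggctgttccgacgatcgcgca
Cadps promoter: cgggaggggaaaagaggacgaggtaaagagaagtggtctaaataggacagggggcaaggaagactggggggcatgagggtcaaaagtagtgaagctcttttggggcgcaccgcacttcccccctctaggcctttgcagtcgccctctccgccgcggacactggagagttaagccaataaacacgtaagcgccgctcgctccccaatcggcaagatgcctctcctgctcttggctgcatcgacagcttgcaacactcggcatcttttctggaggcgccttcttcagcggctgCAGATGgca
Ptprn2 promoter: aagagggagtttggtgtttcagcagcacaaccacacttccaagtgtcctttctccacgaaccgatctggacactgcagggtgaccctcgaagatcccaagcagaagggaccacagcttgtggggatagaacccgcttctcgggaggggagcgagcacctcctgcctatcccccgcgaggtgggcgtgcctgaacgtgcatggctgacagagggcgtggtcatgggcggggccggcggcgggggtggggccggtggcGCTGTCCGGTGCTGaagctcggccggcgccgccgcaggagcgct
Cadps2 promoter: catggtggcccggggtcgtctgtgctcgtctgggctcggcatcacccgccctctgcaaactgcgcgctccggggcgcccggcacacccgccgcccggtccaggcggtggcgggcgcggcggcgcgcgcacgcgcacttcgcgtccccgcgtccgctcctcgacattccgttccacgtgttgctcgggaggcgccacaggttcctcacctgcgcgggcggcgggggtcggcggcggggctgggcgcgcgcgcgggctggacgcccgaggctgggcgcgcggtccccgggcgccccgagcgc

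The Syp window lies at chrX:7638330-7638629 on the plus strand (59.0% G or C, 18 CpG), and the Cadps window at chr14:12823030-12823329 on the minus strand (58.0%, 17 CpG). The Ptprn2 window lies at chr12:116485470-116485769 on the plus strand (66.0%, 24 CpG), and the Cadps2 window at chr6:23839372-23839671 on the minus strand (79.7%, 54 CpG). The median over the 41 windows was 60.0% G or C and 17 CpG, against 52.7% and 7 over all 32851 windows. Both strands were searched for RE1, the element bound by the neuronal gene repressor REST, and for its left and right parts CAGCACC and GGACAGC. The whole RE1 was in 0 of the 41 windows and in 0.0639% of all windows. CAGCACC was in 4 (Ptprn2, Sv2c, Syn1 and Unc13a; 7.14% of all windows) and GGACAGC in 3 (Ptprn2, Rph3al and Unc13a; 6.56%). In Ptprn2 both parts stood side by side on the minus strand with 0 bases between them, the capitals in its window. Both parts with 0 to 2 bases between them, a search added to the plan, were in 1 of the 41 windows and in 0.0274% of all. The whole RE1 as searched has 2 bases between these parts, so the pair in Ptprn2 is not a whole RE1. CAGATG, an E-box of the kind that Neurod and Neurogenin factors can bind, was searched after the expression values were seen. It was in 4 windows of 3 genes (Cacna1c, Cadps and Syn2) and in 17.2% of all. A match is a description of letters, not a binding site.

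The plasma membrane SNAREs behaved differently from each other. Snap25, which with syntaxin and a vesicle SNARE forms the fusion complex, had levels of 11.45, 11.57 and 10.80 in Ngn3-GFP+ cells. In Sox9-GFP+ cells it had 9.54, 9.58 and 10.01 at e10.5, 10.33, 10.88 and 10.56 at e15.5, and 6.63, 7.61 and 6.27 at p23, and GFP- cells had 8.38, 6.61 and 7.36. Every embryonic array lay above every p23 array, and the p23 sorts overlapped. Snap25 fell 13.5-fold at p23 against e15.5 in Sox9-GFP+ cells (-3.75 ± 0.40, adjusted p = 5.0e-06). The difference of Ngn3-GFP+ from Sox9-GFP+ cells, 0.68 ± 0.40, did not pass (adjusted p = 0.174).

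Stx1a, the syntaxin of this complex, had 8.23, 9.57 and 8.38 in Ngn3-GFP+ cells. Sox9-GFP+ cells had 8.28, 8.16 and 8.15 at e10.5, 8.22, 8.02 and 7.81 at e15.5 and 7.95, 7.84 and 7.80 at p23, and GFP- cells had 7.50, 7.70 and 7.59. One Ngn3-GFP+ array, replicate 2, stood far above all others. Stx1a was called higher in Ngn3-GFP+ than in Sox9-GFP+ cells (0.71 ± 0.25, adjusted p = 0.0367), and was not without that array, nor without replicate 2 or 3 of the Sox9-GFP+ e15.5 arrays. Its difference at p23 against e15.5 in Sox9-GFP+ cells was -0.15 ± 0.25 (adjusted p = 0.621). Of the complexins, which bind the assembled SNARE complex, Cplx2 averaged 7.54 ± 0.36 at p23 in Sox9-GFP+ cells against 9.77 ± 0.17 at e15.5 (SD, n = 3 each), a difference of -2.23 ± 0.33 (adjusted p = 9.82e-05). The dim Cplx1 was called higher at p23 than at e15.5 by 0.37 ± 0.12 (adjusted p = 0.0198), a call lost without replicate 3 at e15.5 or replicate 1 at p23.

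The Rab3 and Rab27 GTPases sit on secretory vesicles and recruit the factors that dock them, and the paralogues of each family differed in direction when p23 was set against e10.5. Rab3a, the main neuronal form, had 9.04, 8.5 and 9.31 in Ngn3-GFP+ cells. Sox9-GFP+ cells had 8.49, 8.44 and 8.25 at e10.5, 8.19, 8.66 and 8.40 at e15.5 and 6.93, 7.43 and 7.48 at p23, and GFP- cells had 8.06, 8.19 and 7.62. Its lowest levels were thus those of Sox9-GFP+ cells at p23, below e15.5 (-1.14 ± 0.22, adjusted p = 0.000745) and below GFP- cells (-0.67 ± 0.22, adjusted p = 0.0240).

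Rab3b had 10.21, 10.36 and 9.81 in Ngn3-GFP+ cells. Sox9-GFP+ cells had 8.5, 8.05 and 8.11 at e10.5, 9.09, 10.03 and 9.86 at e15.5 and 6.53, 6.94 and 6.59 at p23, and GFP- cells had 7.08, 6.64 and 6.67. Rab3b therefore rose between the embryonic stages, by 1.44 ± 0.23 (adjusted p = 0.000752), and stood 7.84-fold lower at p23 than at e15.5 (-2.97 ± 0.23, adjusted p = 2.76e-07). Rab3c had 8.74, 7.92 and 7.52 in Ngn3-GFP+ cells. Sox9-GFP+ cells had 8.06, 7.82 and 8.04 at e10.5, 8.56, 9.30 and 8.59 at e15.5 and 6.60, 6.72 and 6.14 at p23, and GFP- cells had 6.84, 6.41 and 6.66. It too was higher at e15.5 than at e10.5 (0.84 ± 0.27, adjusted p = 0.0350) and lower at p23 than at e15.5 (-2.33 ± 0.27, adjusted p = 1.36e-05). It was called lower in Ngn3-GFP+ than in Sox9-GFP+ cells (-0.76 ± 0.27, adjusted p = 0.0397), with ranges that overlapped.

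Rab3d, the Rab3 of zymogen granules in acinar cells, had 8.78, 8.22 and 9.48 in Ngn3-GFP+ cells. Sox9-GFP+ cells had 7.51, 7.15 and 6.96 at e10.5, 8.44, 8.91 and 9.03 at e15.5 and 7.91, 8.21 and 8.44 at p23, and GFP- cells had 10.02, 9.65 and 9.0. Its mean was lowest at e10.5 and highest in GFP- cells. The rise from the earlier to the later embryo was 1.58 ± 0.30 (adjusted p = 0.00267), and Sox9-GFP+ cells at p23 stood below GFP- cells (-1.37 ± 0.30, adjusted p = 0.00243). Sox9-GFP+ cells at p23 differed from e15.5 by -0.60 ± 0.30 (adjusted p = 0.101). The acinar marker sums were 14055 to 18448 in Ngn3-GFP+ cells and 1386 to 2180 at e10.5 and 19069 to 28879 at e15.5 in Sox9-GFP+ cells. They too were lowest at e10.5 and highest in GFP- cells, but between e15.5 and p23 they moved upward while the Rab3d mean was lower at p23. The part of acinar cells in the Rab3d levels was not tested.

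Rab27a, which docks hormone granules and the lytic granules of T cells, had 11.21, 11.20 and 10.83 in Ngn3-GFP+ cells. Sox9-GFP+ cells had 9.62, 9.46 and 9.86 at e10.5, 9.73, 10.40 and 10.11 at e15.5 and 8.25, 8.65 and 8.79 at p23, and GFP- cells had 10.20, 10.31 and 10.18. Ngn3-GFP+ arrays lay above all others and Sox9-GFP+ arrays at p23 below all others. Rab27a was 1.00 ± 0.18 higher in Ngn3-GFP+ than in Sox9-GFP+ cells (adjusted p = 0.00204), lower at p23 than at e15.5 (-1.52 ± 0.18, adjusted p = 1.85e-05), and 3.18-fold lower in Sox9-GFP+ than in GFP- cells at p23 (-1.67 ± 0.18, adjusted p = 4.95e-06). Between these p23 sorts, leukocyte markers were called lower in Sox9-GFP+ cells in 10 of 11 and endothelial markers in 6 of 8, with 0 higher in both. Mesenchyme markers were called lower in 5 and higher in 1 of 8, and endocrine markers lower in 4 and higher in 2 of 14. The part of any of these in the Rab27a levels was not tested.

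Rab27b, its paralogue on secretory granules of many glands, ran the other way. It had 7.77, 6.35 and 7.72 in Ngn3-GFP+ cells. Sox9-GFP+ cells had 5.84, 5.76 and 5.41 at e10.5, 7.65, 7.88 and 8.16 at e15.5 and 9.19, 9.58 and 9.69 at p23, and GFP- cells had 8.73, 8.80 and 8.09. The 3 ages of Sox9-GFP+ cells did not overlap and rose with age. The step to e15.5 was 2.22 ± 0.32 (adjusted p = 0.000269) and the step to p23 1.59 ± 0.32 (adjusted p = 0.00101), with p23 at least 6.31-fold above e10.5, where every array was below the filter threshold (3.82 ± 0.32, adjusted p = 2.85e-07). The excess over GFP- cells at p23, 0.95 ± 0.32 (adjusted p = 0.0296), was lost without replicate 2 or 3 of the Sox9-GFP+ p23 arrays or replicate 3 of the GFP- arrays, and under median centring of the arrays.

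**Figure D3:**
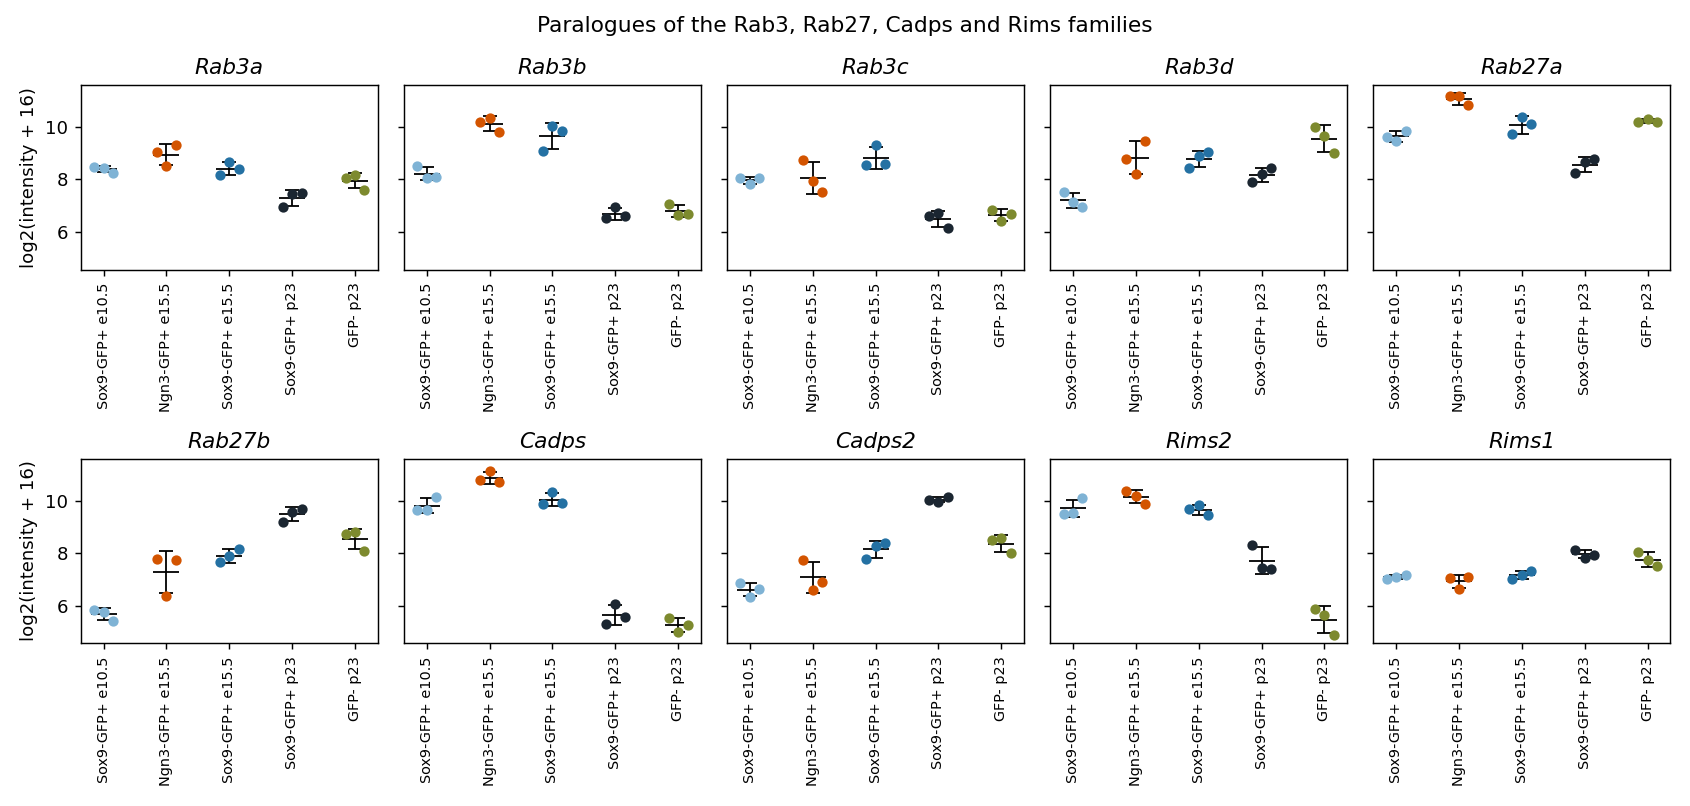
Levels of the Rab3, Rab27, Cadps and Rims genes as log2(intensity + 16); points are single arrays, and bars show the mean and SD of 3 arrays. Rab27b and Cadps2 rose with age in Sox9-GFP+ cells, and Rab27a and Cadps were lowest there or in GFP- cells at p23.

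The Rab effectors link these GTPases to the membrane and the fusion machinery. Rims2, a scaffold of release sites that binds Rab3, had 10.38, 10.19 and 9.89 in Ngn3-GFP+ cells. Sox9-GFP+ cells had 9.51, 9.55 and 10.10 at e10.5, 9.67, 9.85 and 9.47 at e15.5 and 8.31, 7.45 and 7.40 at p23, and GFP- cells had 5.87, 5.65 and 4.87. The p23 sorts were thus both below the embryo and well apart from each other. Rims2 was 3.84-fold lower at p23 than at e15.5 (-1.94 ± 0.28, adjusted p = 8.11e-05) and at least 1.85-fold higher in Sox9-GFP+ than in GFP- cells, whose arrays were all below the filter threshold (2.26 ± 0.28, adjusted p = 1.47e-05). Its paralogue Rims1 averaged 7.97 ± 0.15 at p23 in Sox9-GFP+ cells against 7.17 ± 0.16 at e15.5 (SD, n = 3 each), higher by 0.79 ± 0.16 (adjusted p = 0.000961).

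Sytl5, a synaptotagmin-like protein that binds Rab27, had the largest fitted difference between the p23 sorts. It had 11.15, 11.33 and 11.22 in Ngn3-GFP+ cells. Sox9-GFP+ cells had 10.15, 10.40 and 11.07 at e10.5, 10.56, 10.61 and 10.39 at e15.5 and 10.73, 10.14 and 10.18 at p23, and GFP- cells had 7.97, 7.42 and 7.63. The 3 Sox9-GFP+ ages overlapped and only GFP- cells stood low. At p23 it was 6.37-fold higher in Sox9-GFP+ than in GFP- cells (2.67 ± 0.22, adjusted p = 2.34e-07). The change to p23 in Sox9-GFP+ cells was -0.17 ± 0.22 (adjusted p = 0.507). A second probe set of Sytl5 gave -0.15 ± 0.15 there.

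Rph3al (Noc2), an effector of Rab3 and Rab27 on endocrine and exocrine granules, had 9.77, 10.09 and 9.80 in Ngn3-GFP+ cells. Sox9-GFP+ cells had 8.75, 8.90 and 9.17 at e10.5, 9.04, 9.02 and 8.74 at e15.5 and 8.16, 8.22 and 8.22 at p23, and GFP- cells had 8.38, 8.25 and 8.37. All 3 Ngn3-GFP+ arrays lay above the rest, by 0.96 ± 0.13 over Sox9-GFP+ cells of that age (adjusted p = 0.000408). Sytl1 and Sytl2, other Rab27 partners, were called higher in Ngn3-GFP+ than in Sox9-GFP+ cells (0.44 ± 0.12 and 0.67 ± 0.20) and higher at p23 than at e15.5 (0.58 ± 0.12 and 0.97 ± 0.20). These comparisons share the Sox9-GFP+ e15.5 arrays, in which Sytl2 lay between 6.51 and 6.77, below the filter threshold of 6.83.

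The priming factors make a docked vesicle ready to fuse. Cadps (CAPS-1), needed for priming of dense-core vesicles, had 10.78, 11.15 and 10.74 in Ngn3-GFP+ cells. Sox9-GFP+ cells had 9.64, 9.65 and 10.16 at e10.5, 9.87, 10.33 and 9.92 at e15.5 and 5.30, 6.08 and 5.54 at p23, and GFP- cells had 5.53, 5.0 and 5.27. Every p23 array lay below the filter threshold and every embryonic array far above it. Cadps was at least 9.25-fold lower at p23 than at e15.5 in Sox9-GFP+ cells (-4.40 ± 0.22, adjusted p = 2.71e-09). It was 0.85 ± 0.22 higher in Ngn3-GFP+ than in Sox9-GFP+ cells (adjusted p = 0.0097).

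Cadps2 (CAPS-2), the paralogue, had 7.73, 6.60 and 6.90 in Ngn3-GFP+ cells. Sox9-GFP+ cells had 6.85, 6.34 and 6.62 at e10.5, 7.77, 8.26 and 8.41 at e15.5 and 10.03, 9.95 and 10.13 at p23, and GFP- cells had 8.52, 8.59 and 8.0. The 3 ages of Sox9-GFP+ cells did not overlap, and the p23 arrays lay above all other sorts. Cadps2 rose by 1.54 ± 0.26 to e15.5 (adjusted p = 0.000993) and by a further 1.89 ± 0.26 to p23 (adjusted p = 5.44e-05). It was 1.67 ± 0.26 higher in Sox9-GFP+ than in GFP- cells at p23 (adjusted p = 0.000127) and lower in Ngn3-GFP+ than in Sox9-GFP+ cells at e15.5 (-1.07 ± 0.26, adjusted p = 0.00744). The highest Ngn3-GFP+ value, 7.73, came close to the lowest Sox9-GFP+ value, 7.77.

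Unc13b (Munc13-2) was called only between the p23 sorts. It averaged 9.52 ± 0.08 in Sox9-GFP+ cells against 8.66 ± 0.39 in GFP- cells (SD, n = 3 each), higher by 0.86 ± 0.17 (adjusted p = 0.000913). Doc2b, a calcium sensor with a pair of C2 domains, averaged 6.75 ± 0.07 at p23 against 7.47 ± 0.17 at e15.5 in Sox9-GFP+ cells (SD, n = 3 each; -0.71 ± 0.15, adjusted p = 0.00121). Unc13a (Munc13-1) has 3 probe sets that disagreed. The brightest, used here, gave -0.45 ± 0.20 at p23 against e15.5 (adjusted p = 0.0689 over probe sets), and the other two gave -1.64 ± 0.22 and -1.67 ± 0.20 (adjusted p = 5.37e-05 and 2.11e-05). Between the e15.5 sorts they gave -0.59 ± 0.20, 0.78 ± 0.22 and 0.47 ± 0.20, so its call as lower in Ngn3-GFP+ cells rests on the choice of probe set.

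Among the synaptotagmins, the calcium sensors of release and their calcium-independent relatives, Syt13 had the largest fitted change to p23. Syt13, a form without the usual calcium-binding residues, had 12.61, 12.64 and 12.19 in Ngn3-GFP+ cells. Sox9-GFP+ cells had 10.68, 10.76 and 11.12 at e10.5, 11.11, 11.66 and 11.28 at e15.5 and 8.28, 8.28 and 7.83 at p23, and GFP- cells had 8.11, 7.74 and 8.06. Ngn3-GFP+ arrays were highest and the p23 sorts overlapped at the bottom. Syt13 was 2.19-fold higher in Ngn3-GFP+ than in Sox9-GFP+ cells (1.13 ± 0.19, adjusted p = 0.00112) and 9.32-fold lower at p23 than at e15.5 (-3.22 ± 0.19, adjusted p = 1.45e-08).

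Syt5, a calcium sensor of dense-core vesicles, had 8.12, 8.81 and 8.52 in Ngn3-GFP+ cells. Sox9-GFP+ cells had 9.15, 8.77 and 8.78 at e10.5, 8.14, 8.07 and 7.77 at e15.5 and 6.41, 6.47 and 6.29 at p23, and GFP- cells had 6.32, 6.19 and 6.56. The 3 ages of Sox9-GFP+ cells did not overlap and fell with age, with a first step of -0.91 ± 0.17 (adjusted p = 0.00263) and a second of -1.60 ± 0.17 (adjusted p = 6.78e-06). Syt7, a slow, high-affinity calcium sensor, averaged 7.17 ± 0.12 in Sox9-GFP+ cells at p23, against 8.62 ± 0.04 at e15.5 and 6.23 ± 0.07 in GFP- cells (SD, n = 3 each). It was thus lower than at e15.5 (-1.45 ± 0.16, adjusted p = 8.31e-06) and 0.94 ± 0.16 higher than in GFP- cells (adjusted p = 0.000294). Syt14 was lower at p23 than at e15.5 (-2.18 ± 0.24, adjusted p = 8.03e-06). Syt4, dim throughout, was called in 3 comparisons, with differences of 0.41, -0.52 and -0.32. Syt1, the main sensor of fast transmitter release, lay between 6.70 and 7.37 in all 15 arrays, close to the filter threshold.

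Of the vesicle membrane proteins, Syp (synaptophysin) had 11.40, 11.46 and 11.37 in Ngn3-GFP+ cells. Sox9-GFP+ cells had 10.57, 10.41 and 10.58 at e10.5, 10.77, 10.95 and 10.68 at e15.5 and 6.72, 7.48 and 6.31 at p23, and GFP- cells had 8.64, 8.40 and 8.21. No group overlapped another. Syp was 15.6-fold lower at p23 than at e15.5 (-3.96 ± 0.22, adjusted p = 7.41e-09) and 2.98-fold lower in Sox9-GFP+ than in GFP- cells at p23 (-1.58 ± 0.22, adjusted p = 4.26e-05). Its excess in Ngn3-GFP+ over Sox9-GFP+ cells, 0.61 ± 0.22, had adjusted p = 0.0370 although the groups were 3 tight, separate arrays each, since the SE is shared by all 5 groups, and the call was lost whichever single array of the e15.5 sorts was left out. The synaptic vesicle glycoprotein Sv2a averaged 6.47 ± 0.30 at p23 against 9.38 ± 0.11 at e15.5 in Sox9-GFP+ cells (SD, n = 3 each; -2.91 ± 0.23, adjusted p = 2.69e-07). Its relatives Sv2b and Sv2c were not called in that step (-0.34 ± 0.19 and -0.27 ± 0.20). Syn1, a synapsin that tethers vesicles to actin, was lower at p23 than at e15.5 (-0.58 ± 0.15, adjusted p = 0.00618).

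Ptprn2 (phogrin) and Ptprn (IA-2) span the membrane of hormone granules. Ptprn2 had 11.22, 11.90 and 11.49 in Ngn3-GFP+ cells. Sox9-GFP+ cells had 10.48, 10.27 and 10.32 at e10.5, 10.63, 10.91 and 10.63 at e15.5 and 7.60, 8.39 and 7.01 at p23, and GFP- cells had 9.84, 9.66 and 9.36. As for Syp, no group overlapped another and Sox9-GFP+ cells at p23 were lowest. Ptprn2 was 8.33-fold lower at p23 than at e15.5 (-3.06 ± 0.27, adjusted p = 9.3e-07) and 3.87-fold lower in Sox9-GFP+ than in GFP- cells (-1.95 ± 0.27, adjusted p = 4.36e-05).

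Ptprn had 9.23, 9.71 and 8.80 in Ngn3-GFP+ cells. Sox9-GFP+ cells had 8.62, 8.69 and 9.26 at e10.5, 8.07, 8.52 and 8.36 at e15.5 and 5.92, 5.82 and 5.67 at p23, and GFP- cells had 5.58, 5.43 and 5.90. Unlike Ptprn2 it was low in both p23 sorts, which overlapped. Ptprn was at least 2.81-fold lower at p23 than at e15.5 (-2.52 ± 0.22, adjusted p = 9.55e-07), and its difference between the p23 sorts was 0.17 ± 0.22 (adjusted p = 0.605).

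Calcium channels open when the membrane depolarises and start release. Cacna1a, the pore of the P/Q-type channel, had 10.39, 10.84 and 10.21 in Ngn3-GFP+ cells. Sox9-GFP+ cells had 8.76, 8.99 and 9.5 at e10.5, 9.33, 9.5 and 9.10 at e15.5 and 5.93, 6.67 and 6.29 at p23, and GFP- cells had 6.61, 6.22 and 5.73. It was highest in Ngn3-GFP+ cells and low in both p23 sorts. The excess in Ngn3-GFP+ over Sox9-GFP+ cells was 2.24-fold (1.16 ± 0.26, adjusted p = 0.00509), and the p23 level, below the filter threshold in every array, was at least 5.59-fold below e15.5 (-3.02 ± 0.26, adjusted p = 6.53e-07).

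Cacna1c, an L-type channel pore, had 9.73, 9.41 and 9.19 in Ngn3-GFP+ cells. Sox9-GFP+ cells had 8.75, 8.88 and 9.71 at e10.5, 8.39, 8.68 and 8.16 at e15.5 and 7.13, 7.05 and 6.97 at p23, and GFP- cells had 7.36, 7.05 and 7.0. It exceeded Sox9-GFP+ cells in the Ngn3-GFP+ sort by 1.03 ± 0.22 (adjusted p = 0.00467) and was lower at p23 than at e15.5 (-1.36 ± 0.22, adjusted p = 0.00025). The other L-type pore, Cacna1d, was also called higher in Ngn3-GFP+ cells (0.63 ± 0.22, adjusted p = 0.0326), with ranges that overlapped, and lower at p23 than at e15.5 (-1.2 ± 0.22, adjusted p = 0.000529).

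What set the e15.5 sorts apart? Each was taken from embryos of its own reporter cross, so cross and sort cannot be told apart here. In Ngn3-GFP+ cells all 3 calcium channel genes, 4 of 6 Rab effectors, 4 of 8 synaptotagmins, 4 of 8 vesicle and granule membrane genes and 2 of 4 SNARE and complexin genes were higher than in Sox9-GFP+ cells, and 0 of these roles' genes were lower. Of the 6 Rab GTPases 1 was higher and 1 lower, and of the 5 priming factors 2 were higher and 2 lower. In all, 20 of the 40 genes were called higher, against 23.3% of all genes tested, and 3 were called lower (Cadps2, Rab3c and Unc13a), against 18.4%, so 23 were called either way (41.7% of all genes). The median difference over the 40 was 0.48, and 0.04 over all genes. The groups did not overlap for 21 genes that were higher (31.8% of all genes) and 2 that were lower (24.3%). Only 3 of the called differences upward and 1 downward reached 2-fold. Endocrine markers moved the same way, 8 of 14 called higher and 0 lower, as did 4 of 13 neuron markers with 1 lower and 3 of 11 leukocyte markers with 0 lower. Acinar markers were called lower in 5 of 9 and ductal markers in 3 of 7, with 0 higher in both. The part of these in the result was not tested.

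These calls depended on the scaling between arrays. Centring each array on its median, which put the median difference of all genes at -0.14, left 9 genes higher and made 4 lower, with 28.2% of all calls higher in place of 55.9%. Quantile normalization gave 13 higher and 2 lower, with 42.4% of all calls higher. Called higher under both were 9 genes: Cacna1a, Cacna1c, Cadps, Ptprn, Rab27a, Rph3al, Sv2b, Syt13 and Sytl5. Leaving out replicate 3 of the Sox9-GFP+ arrays left 11 higher and 1 lower, leaving out replicate 2 of the Ngn3-GFP+ arrays left 1 lower, and leaving out the arrays with embryonic globin signal (Hbb-y above 9) left 13 and 1. Of the 20, 11 stayed called whichever single array was left out, all of the 9 but Sytl5 together with Syt4, Syt7 and Sytl1.

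What separates the later embryonic Sox9-GFP+ cells from those of the early bud? Most exocytosis genes were not called at e15.5 against e10.5: 29 of 40, where 28.2% of all genes were called. The 5 that rose were Rab27b, Rab3d, Cadps2, Rab3b and Rab3c, 12.2% of all genes tested being called higher. The 6 that fell were Syt5, Sytl2, Cacna1c, Sv2b, Sv2c and Syt4 (16% of all genes), with differences between -0.91 and -0.52. Of the 6 Rab GTPases 4 rose and 0 fell. The median over the 40 genes was 0.02 and over all genes -0.05. The groups did not overlap for 11 genes upward (26.1% of all genes) and 8 downward (31.2%). Acinar markers were called higher in 8 of 9 (median 3.01), endocrine markers in 6 of 14 and ductal markers in 4 of 7, with 0 lower in each. Neuron markers were called lower in 5 of 13, liver markers in 3 of 5 and leukocyte markers in 1 of 11, with 0 higher in each. The part of these in the rises and falls was not tested.

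The falls of this step were the less certain part. Median centring, which put the median of all genes at 0.11, gave 9 genes higher and 2 lower, with 73.7% of all calls higher in place of 43.3%. Quantile normalization gave 5 and 2 with 62.7%. The number lower was 2 without replicate 3 at e10.5, 3 without replicate 1 and 2 without replicate 3 at e15.5, and 1 without the arrays with Hbb-y signal. Syt5 alone of the 6 was called lower under both scalings and whichever single array was left out, while 4 of the 5 that rose (all but Rab3c, lost without replicate 2 or 3 at e10.5 or at e15.5) stayed called throughout. Syt5 was not called without the arrays with Hbb-y signal, a setting that leaves a single array at e10.5.

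**Figure D4:**
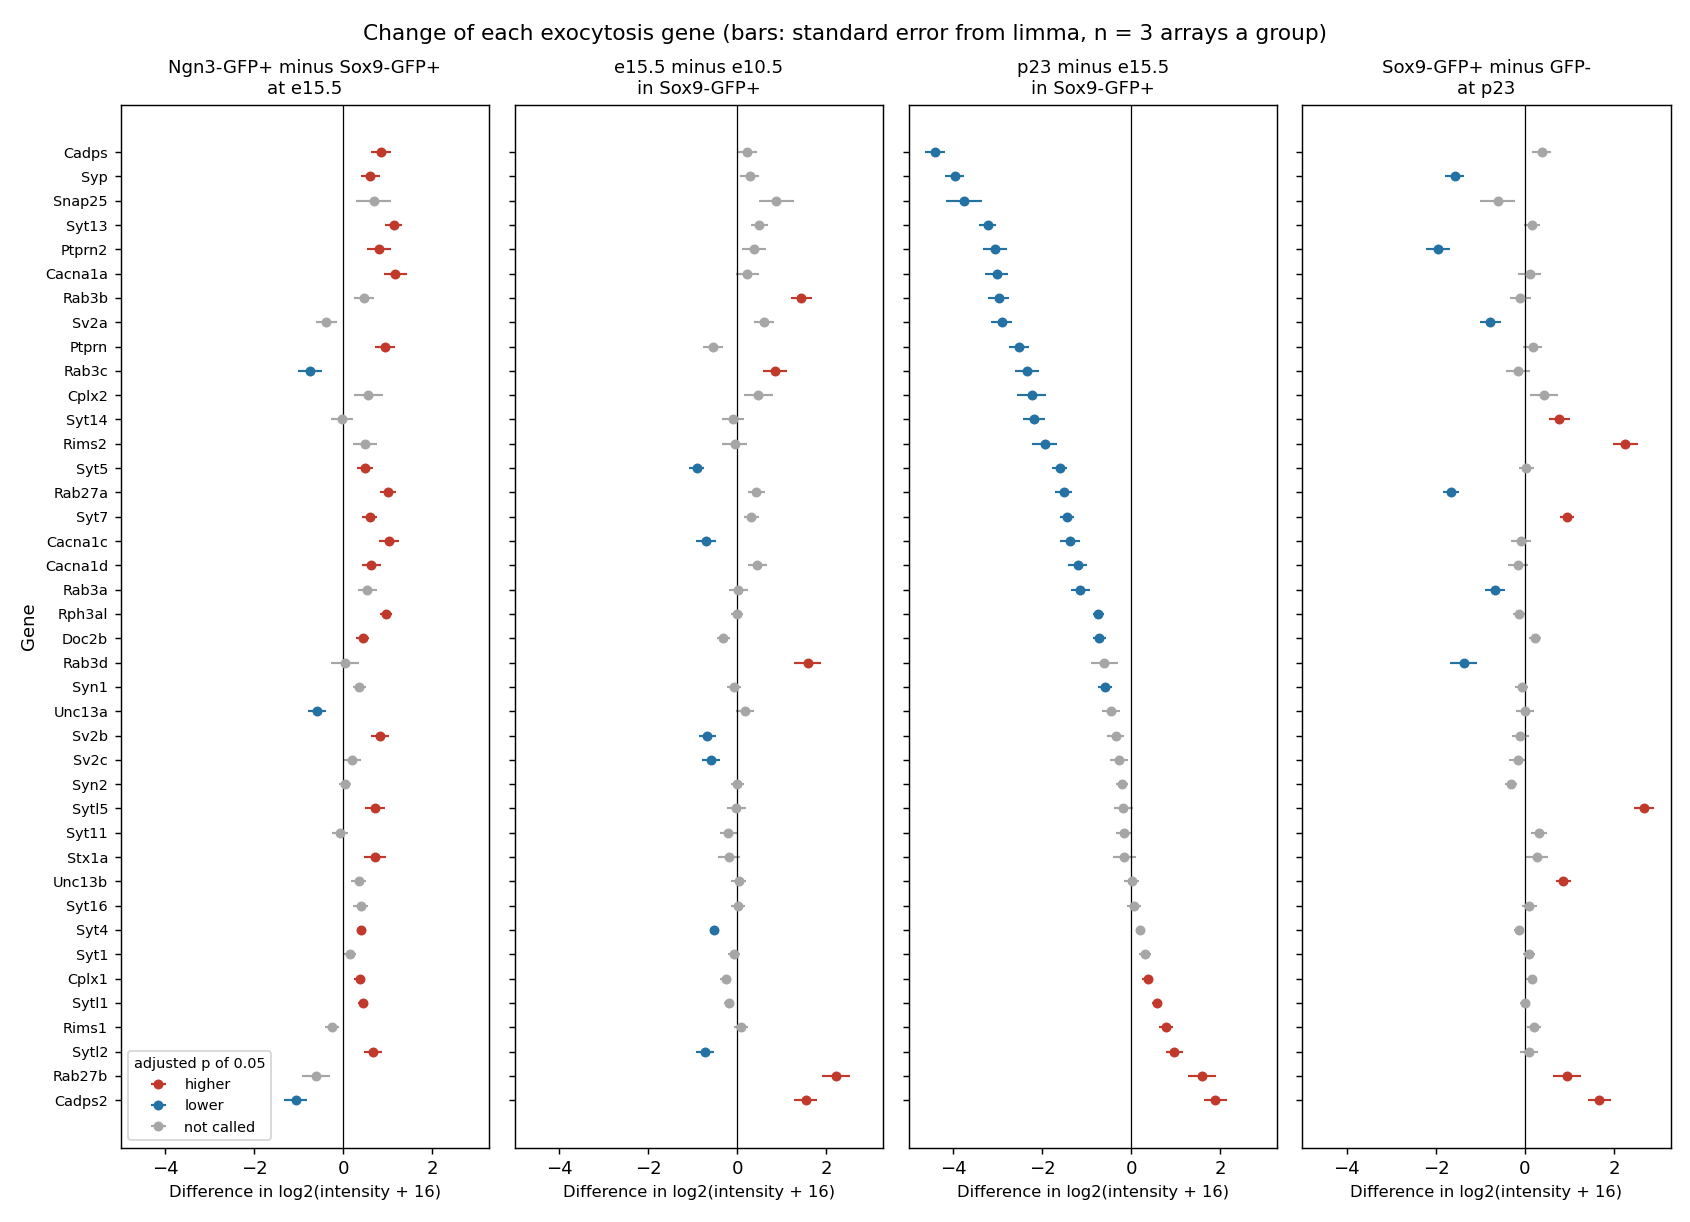
Difference of each exocytosis gene in 4 comparisons, as log2(intensity + 16) of the first-named group minus the second; points are limma estimates, bars their SE, n = 3 arrays a group, red and blue points called at adjusted p of 0.05. Most points lie right of 0 for Ngn3-GFP+ against Sox9-GFP+ cells and left of 0 for p23 against e15.5, where Cadps reaches -4.40.

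What became of the machinery in Sox9-GFP+ cells by p23? Genes of every role fell, and those of some also rose: 3 of 3 calcium channels, 4 of 6 Rab GTPases, 4 of 8 synaptotagmins, 5 of 8 vesicle and granule membrane genes, 2 of 5 priming factors, 2 of 6 Rab effectors and 2 of 4 SNARE and complexin genes were lower than at e15.5. Higher were 3 of the 6 Rab effectors, whose median change was 0.20, and 1 each of the Rab GTPases, priming factors and SNARE and complexin genes. In all, 22 of 40 genes fell, against 26.8% of all genes tested, and 6 rose (Cadps2, Rab27b, Sytl2, Rims1, Sytl1 and Cplx1), against 30.7%, so 28 were called either way (57.5% of all genes). The median change of the 40 was -0.72, and 0.05 over all genes. At least 2-fold changes were called in 19 genes downward and in 2 upward, Cadps2 and Rab27b. The groups did not overlap for 24 genes downward (34.1% of all genes) and 8 upward (38.7%). All 22 falls stayed called whichever single array was left out, under both scalings, and after removal of the 2 p23 arrays in which the leukocyte gene Ptprc exceeded 10, which leaves 1 array whose spread is taken from the other groups. Median centring gave 25 falls and 5 rises, with 39.4% of all calls higher in place of 53.4% and a median of -0.11 over all genes.

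Endocrine and neuron markers fell in the same step. Of 14 endocrine markers 13 were called lower and 0 higher, and of 13 neuron markers 6 lower and 0 higher, among them Tubb3 (-4.88 ± 0.28, adjusted p = 1.45e-08). The 7 neuron markers not called were Elavl3, Stmn2, Prph, Th, Dbh, Chrna3 and Hand2. Their means at e15.5, from 6.49 to 7.13, already lay below the table median of 7.67, so a fall would be hard to see. Within p23, replicate 2 of the Sox9-GFP+ arrays had the highest endocrine sum, 9270, against 4558 and 4679 in replicates 1 and 3. It also had the highest leukocyte sum (3762, against 1747 and 2635), acinar sum (84180, against 77482 and 72894), and endothelial, mesenchyme and red cell sums. The neuron sum was highest in replicate 1 (1136), and the ductal (17486), glia and liver sums in replicate 3. Replicate 2 was the highest of the 3 for 12 of the 22 genes that fell, with replicates 1 and 3 highest for 5 each. The share of all genes highest in replicate 2 was not counted. Leukocyte markers were called higher at p23 in 8 of 11 and lower in 0, and endothelial markers higher in 7 of 8 and lower in 1. Acinar markers were higher in 5 of 9 (median 3.01) and lower in 2, and ductal markers higher in 3 of 7 and lower in 1. The part of any of these in the falls was not tested.

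Against e10.5, which shares the p23 arrays with the comparison above, 25 of 40 genes were lower at p23 (23.3% of all genes tested) and 5 higher (17.7%): Rab27b, Cadps2, Rab3d, Rims1 and Sytl1. The largest fitted differences were those of Cadps (-4.18 ± 0.22, at least 7.93-fold), Rab27b (3.82 ± 0.32), Syp (-3.68 ± 0.22), Cadps2 (3.43 ± 0.26), Ptprn (-3.05 ± 0.22) and Snap25 (-2.87 ± 0.40). The median over the 40 was -0.93, and -0.01 over all genes. The groups did not overlap for 26 genes downward (28.4% of all genes) and 6 upward (22.5%). Rab3d and Sytl1 were no longer called higher, leaving 3 rises, without the arrays with Hbb-y signal or without those with Ptprc signal. Of single arrays, Rab3d was lost without replicate 2 or 3 at e10.5 or replicate 3 at p23, and Sytl1 without replicate 1 at e10.5. Endocrine markers were called lower in 11 of 14 and higher in 1, neuron markers lower in 7 of 13 and liver markers lower in 4 of 5, with 0 higher in both. Acinar markers were higher in 8 of 9 (median 6.43) and lower in 1, endothelial markers higher in 6 of 8 and lower in 1, and ductal markers higher in 5 of 7 and lower in 0. Their part in these differences was not tested.

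How did Sox9-GFP+ cells differ from the other pancreas cells at p23? Called higher in them were Sytl5, Rims2, Cadps2, Rab27b, Syt7, Unc13b and Syt14, and called lower Ptprn2, Rab27a, Syp, Rab3d, Sv2a and Rab3a. The counts, 7 of 40 higher and 6 lower, stood beside 21.5% and 14.5% of all genes tested, close to the background in both directions. The median difference was 0.06, and 0.07 over all genes. The groups did not overlap for 7 genes each way (27.6% of all genes upward and 19.7% downward). Differences of at least 2-fold were called for 3 genes upward (Sytl5, Cadps2 and, by its fitted value, Rims2) and 4 downward (Ptprn2, Rab27a, Syp, Rab3d). Of the 13 calls, Rab27b, Syt14, Rab3a and Sv2a were lost when 1 of several single arrays was left out. Syt14 (0.77 ± 0.24) and Sv2a (-0.78 ± 0.23) overlapped between the sorts. For Syt14 every array of both sorts lay below the filter threshold, so its difference lies within dim signal. For Syt7 every GFP- array lay below that threshold, and its fold was at least 1.27. For Sv2a every Sox9-GFP+ array did, with a fold of at least 1.34. Leukocyte markers were called lower in Sox9-GFP+ cells in 10 of 11 and endocrine markers lower in 4 and higher in 2 of 14, and their part in these differences was not tested.

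The wider machinery was followed with 78 further genes: other SNAREs and their regulators, Rab3 exchange factors, active zone scaffolds, further synaptotagmins and calcium channel subunits. Of these, 74 had a probe set of their own and 72 passed the filter. In Ngn3-GFP+ against Sox9-GFP+ cells 24 were higher and 4 lower, beside 23.3% and 18.4% of all genes tested, with a median of 0.25 (0.04 over all genes). Sytl4 (granuphilin), a Rab27 effector that docks insulin granules, had 11.22, 10.95 and 10.68 in Ngn3-GFP+ cells, against 7.72, 8.17 and 8.27 in Sox9-GFP+ cells, a difference of 2.89 ± 0.17 (adjusted p = 9.05e-07) that was larger than that of any of the 40 genes in this comparison. Pclo (piccolo), an active zone scaffold, was 1.29 higher and Stxbp5l (tomosyn-2), which binds syntaxin, 0.95 higher, while Syngr2, Snapin and Sypl were lower (-0.91, -0.47 and -0.33).

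At e15.5 against e10.5 in Sox9-GFP+ cells 12 of the 72 rose and 12 fell, near the 12.2% and 16% of all genes tested (median -0.14, and -0.05 over all genes). The largest rises were Sytl4 (1.33), Syngr2 (0.97) and Rimbp2 (0.97), and the largest falls Unc13c (-0.95), Doc2a (-0.60) and Syngr3 (-0.58). At p23 against e15.5, 23 rose and 14 fell, beside 30.7% and 26.8% of all genes tested (median 0.09, and 0.05 over all genes), so the rises were near the background. Stx11, a syntaxin known from lytic granule release in lymphocytes, rose by 1.60, Unc13c by 1.08 and Mlph (melanophilin), a Rab27 effector, by 0.81. Rimbp2, which ties calcium channels to Rims, fell by 4.66, Stxbp5l fell by 3.85 and the T-type channel Cacna1h fell by 3.30. Against e10.5, 10 were higher at p23, led by Stx11 (1.2), Sypl (1.04) and Sytl4 (0.94), and 16 lower, led by Rimbp2 (-3.69), Stxbp5l (-3.49) and the channel subunit Cacnb2 (-3.07), beside 17.7% and 23.3% of all genes tested, with a median of 0.02 (-0.01 over all genes).

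In Sox9-GFP+ against GFP- cells at p23, 12 of the 72 were higher and 5 lower, beside 21.5% and 14.5% of all genes tested (median 0.05, and 0.07 over all genes). For Syt17 the fitted difference was 1.93, but every GFP- array lay below the filter threshold and the fold was at least 1.01. Its Sox9-GFP+ arrays read 6.55, 6.65 and 7.34, around that threshold of 6.83, so this difference lies largely within dim signal. Pclo was 1.68 higher and Stx3, a syntaxin of apical membranes, 1.52 higher. Cacnb2 (-2.59), Sytl3 (-1.34) and Nsf, the ATPase that takes used SNARE complexes apart (-0.56), were lower. Sytl4 stood at p23 at 7.47, 7.75 and 7.79 in Sox9-GFP+ cells, against 7.61, 7.41 and 7.44 in GFP- cells, with overlap.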

How the data were processed

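The authors deposited linear intensity values per probe set for 15 arrays in 1 table. The submitters' processing notes name PLIER and Affymetrix Expression Console 1.1, and any normalization between arrays is not stated in them. Of 35557 probe sets, 21789 named 1 gene in the platform annotation, 1621 several and 12147 none. The brightest probe set stood for a gene. A gene was kept if its intensity exceeded 97.8 (the 30th percentile of the table) in 3 or more arrays. A single limma fit over all 15 arrays, with 1 mean for each group, took log2(intensity + 16). Adjusted p-values cover all 16883 genes in each contrast. The number of arrays limits the precision.

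The 41 genes, the wider list, the marker lists and the comparisons were chosen with earlier results of these data known. Named with the value in every array were Snap25, Stx1a, the Rab3 and Rab27 genes and, in each comparison, the 6 largest called changes without overlap; of the wider list, the 3 largest called changes without overlap in each direction. The other genes are given by means or differences. The 4 promoters and CAGATG were chosen after the values were seen, and the search for both RE1 parts together was added to the plan. Same-numbered arrays did not deviate together across all comparisons, so the main fit has no replicate block. Their deviations correlated at 0.16, 0.03 and 0.20 at p23 against e15.5, above every pair of other numbers (at most 0.0073). At p23 against e10.5 they correlated at -0.44, -0.02 and -0.49. The further marker lists differed as follows between Ngn3-GFP+ and Sox9-GFP+ cells at e15.5: glia 2 higher and 1 lower of 7, endothelial 2 and 0 of 8, mesenchyme 1 and 1 of 8, red cell 0 and 0 of 3 tested, liver 1 and 0 of 5. Between the p23 sorts, in Sox9-GFP+ against GFP- cells, these were glia 1 and 1, endothelial 0 and 6, mesenchyme 1 and 5, red cell 0 and 1, liver 2 and 0. The fit was tested on simulated data. The fits ran in limma 3.58.1 under R 4.3.3, and sequences and plots in Python 3.11.15 (pandas 2.3.3, numpy 2.4.6, matplotlib 3.10.9).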

Additional observations from a re-analysis of the deposited data

How the results depend on the processing

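Of 105 calls of single genes over the 5 comparisons, 0 reversed under any alternative fit. Where a filter dropped a gene, that fit was passed over for its calls. Counted so, 46 held under every fit and 73 under every one but limma treat against a 1.5-fold change. The filter at the table median dropped Sytl2 and Sv2c, whose calls at p23 against e15.5 and e10.5 in turn are among the 73. No alternative took another single probe set. For Unc13a the dimmer sets gave 0.78 and 0.47 between the e15.5 sorts, against the called -0.59. Treat left 0 higher and 0 lower of the 20 and 3 genes called in Ngn3-GFP+ against Sox9-GFP+ cells, and 3 and 0 of 5 and 6 at e15.5 against e10.5. It left 2 higher and 17 lower of 6 and 22 at p23 against e15.5, and 2 and 17 of 5 and 25 at p23 against e10.5. Between the p23 sorts it left 3 and 3 of 7 and 6. Median centring gave 9 higher in Ngn3-GFP+ cells, 9 higher and 2 lower at e15.5 against e10.5, and 4 genes highest in GFP- cells in place of 2. Quantile normalization gave 13 higher in Ngn3-GFP+ cells and 2 lower at e15.5 against e10.5. A filter at the table median gave 3 lower at e15.5 against e10.5, 3 genes highest at e10.5 in place of 5 and 1 in GFP- cells. With it, 40.7% of all calls were higher in Ngn3-GFP+ cells (55.9% as reported), 58.2% at e15.5 against e10.5 (43.3%) and 42.1% at p23 against e15.5 (53.4%). Fitting only the 2 groups gave 11 higher at e15.5 against e10.5. Without the 3 arrays with Hbb-y above 9, Ngn3-GFP+ cells had 13 higher and 1 lower, e15.5 had 1 lower than e10.5, and p23 had 3 higher than e10.5, as it did without the 2 arrays with Ptprc above 10. Both leave 1 group with a single array, assumed to vary like the others.

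With each array left out in turn, the counts ranged from 11 to 18 higher and 1 to 2 lower in Ngn3-GFP+ cells, from 4 to 6 and 2 to 6 at e15.5 against e10.5, from 5 to 6 higher with 22 lower each time at p23 against e15.5, from 4 to 5 and 24 to 25 at p23 against e10.5, and from 5 to 7 and 4 to 6 between the p23 sorts. The array titles do not say what the replicate numbers stand for. With the replicate number as a block the counts were 19 and 3, 5 and 4, 6 and 22, 5 and 25, and 7 and 6, in the order of comparisons just given. The cause of these shifts was not tested.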
